A study of Homo sapiens with 14 samples.

Results

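The sites of RING1A, a ubiquitin ligase, were set against the sites of ubiquitylated histone H2A (uH2A), the mark that this ligase places, in control cells. The data are chromatin immunoprecipitation sequencing (ChIP-seq) peak lists from DU145, a prostate cancer line long established in culture. The members are all 56011 peaks of the control RING1A list and all 33879 peaks of the control list made with a mouse antibody to uH2A, 89890 of the 227479 peaks that the 14 libraries of the series list in all. Both libraries come from DU145 cells that carry a scramble construct and were selected with puromycin, and neither was treated otherwise per the labels. RING1A was precipitated with a rabbit antibody and uH2A with the mouse antibody. The series also holds cells in which EED was knocked down, and 5 further control lists, made with a rabbit uH2A antibody and with antibodies to EED, RING1B, BMI1 and H3K27me3. Only control lists are used here. Each antibody has 1 control library, so no value below has a replicate check. Intervals are 95% intervals (Clopper-Pearson for shares, Newcombe for differences) that cover counting error only and treat peaks as independent. Sequencing depth is unknown, and the width of the intervals rests on the number of peaks alone.

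Polycomb repressive complex PRC1 attaches a single ubiquitin to histone H2A. Its catalytic subunit is either RING1A or RING1B, bound to a partner such as BMI1, and deubiquitinating enzymes remove the mark again. Polycomb complex PRC2, of which EED is a core subunit, places H3K27me3, and some PRC1 complexes are recruited by that mark while others are recruited without it. Ligase and mark can therefore share sites, although uH2A can spread beyond a bound ligase and RING1B can place it without RING1A.

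The lists of RING1A and uH2A differ in more than the antibody. RING1A belongs to a set of libraries whose culture description, chromosome naming and height column differ from those of the set with uH2A mouse, uH2A rabbit and EED. No pair of libraries from the same set compares RING1A with uH2A, so the set and the antibody cannot be told apart in any value below. RING1A, RING1B, BMI1 and H3K27me3 list every peak of chromosomes 22, X and Y with a height of 0 and no peak elsewhere with that value. For RING1A these were 1714 peaks on chromosome 22, 198 on X and 277 on Y, 3.91% of the list. They were not small peaks, with a median length of 150 bp against 125 bp for the whole list, and 26.8% of them (24.9 to 28.7) lay on a uH2A mouse peak against 27.1% of all RING1A peaks. That share pools unlike chromosomes, with 33.3% on chromosome 22, 0.505% on X and 5.05% on Y. Since a height of 0 covered whole chromosomes, it was not read as a low height in the main height classes. Alternative runs that cut RING1A by height drop these peaks, and height classes over all chromosomes count them as the lowest. Values by height class, each class with 25% of the peaks of a list, are given for chromosomes 1 to 21, beside the value for all peaks.

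RING1A and uH2A mouse shared a minority of their sites. Of the 56011 RING1A peaks, 15164 overlapped a uH2A peak by at least 1 bp, 27.1% (26.7 to 27.4). Of the 33879 uH2A peaks, 14891 overlapped a RING1A peak, 44.0% (43.4 to 44.5). That left 40847 RING1A peaks without the mark and 18988 uH2A peaks without the ligase. Sharing was nearly always a match of single peaks. Among shared RING1A peaks, 96.9% met 1 uH2A peak, and among shared uH2A peaks 95.1% met 1 RING1A peak. RING1A peaks covered 9.07 Mb and uH2A peaks 5.81 Mb, with 2.22 Mb in common, which was 24.4% of the RING1A length and 38.1% of the uH2A length.

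Where the ligase and the mark overlapped, they were centred on nearly the same place. In 15681 overlapping pairs the midpoints lay a median of 37.5 bp apart (quartiles 12.5 and 87.5 bp), in lists whose edges fall on steps of 25 bp. In 26.7% of pairs the uH2A peak lay inside the RING1A peak, in 30.9% the RING1A peak lay inside the uH2A peak, in 39.5% the peaks were staggered and in 2.93% they had the same edges. The mark was thus not regularly the broader of the pair: uH2A was the longer peak in 48.6% of pairs and RING1A in 40.6%. Heights within the pairs rose together only in part, with a Spearman correlation of 0.395 and a Pearson r of 0.547 on log2 heights over 15071 pairs with a RING1A height. These are descriptions across sites of a single library each.

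From a uH2A mouse peak the nearest RING1A peak lay a median of 325 bp away between midpoints (quartiles 50 and 4062.5 bp), and 62.7% of uH2A peaks had RING1A within 1 kb, 83.3% within 10 kb and 97.0% within 100 kb. From a RING1A peak the nearest uH2A peak lay a median of 2262.5 bp away (quartiles 137.5 and 20000 bp), and 42.8% had uH2A within 1 kb, 67.0% within 10 kb and 89.4% within 100 kb. Both distances depended on which peaks entered. With RING1A limited to its tallest 33879 peaks, the median from uH2A to RING1A was 1050 bp and that from RING1A to uH2A 1150 bp. The former was longer and the latter shorter than with the full list. In windows of 1 Mb with at most 100 peaks of both lists the medians were 925 bp from uH2A to RING1A and 9987.5 bp from RING1A to uH2A.

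Peaks that did not overlap were often still neighbours. Of the 18988 uH2A peaks without RING1A, 33.4% had a RING1A peak within 1 kb and 70.2% within 10 kb, and 1020 had none within 100 kb. Of the 40847 RING1A peaks without uH2A, 21.6% had uH2A within 1 kb and 54.8% within 10 kb, and 5919 had none within 100 kb. Within a list, the next RING1A peak lay a median of 1737.5 bp away and the next uH2A peak 2675 bp.

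RING1A was the nearest of the other 6 control lists to uH2A mouse peaks, with the rabbit antibody to the same mark at a median of 3187.5 bp, EED at 12112.5 bp, BMI1 at 14200 bp, H3K27me3 at 94400 bp and RING1B at 854562.5 bp. The lists differ in length, with RING1A the longest at 56011 peaks and RING1B the shortest at 5155. With each of the 6 limited to its 4522 tallest peaks on chromosomes 1 to 21, the order changed. From a uH2A mouse peak the nearest tall uH2A rabbit peak then lay a median of 49525 bp away, the nearest tall EED peak 51937.5 bp and the nearest tall RING1A peak 236362.5 bp. The overlap of uH2A mouse peaks with these short lists was nearly level, at 6.90% for RING1A, 6.82% for uH2A rabbit and 6.50% for EED, against 4.85% for BMI1, 2.81% for RING1B and 2.16% for H3K27me3. Seen from RING1A peaks, the 4522 tallest uH2A mouse peaks overlapped 7.27%, those of BMI1 6.97%, of RING1B 5.69%, of uH2A rabbit 4.03%, of EED 4.02% and of H3K27me3 2.58%.

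The number of RING1A peaks fell steeply with distance from a uH2A peak. Within 100 bp of a uH2A midpoint there were 1.92 RING1A midpoints per kb, between 100 and 200 bp 0.485 per kb, between 5 and 10 kb 0.162 per kb and between 50 and 100 kb 0.121 per kb. The first of these values was 11.9 times the value at 5 to 10 kb. The same ratio was 10.6 for uH2A rabbit, 15.4 for EED, 12.0 for BMI1, 8.38 for RING1B and 3.13 for H3K27me3, so RING1A was not set apart from EED or BMI1 by it. In windows of 1 Mb with more than 300 peaks of both lists, RING1A midpoints were at 2.45 per kb within 100 bp and at 0.447 per kb at 5 to 10 kb, a ratio of 5.47. In windows with 1 to 10 peaks the values were 0.988 and 0.00335 per kb, a ratio of 295. The value of 0.00335 per kb rests on 57 pairs, and windows chosen for few peaks hold few distant neighbours by construction.

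**Figure D1:**
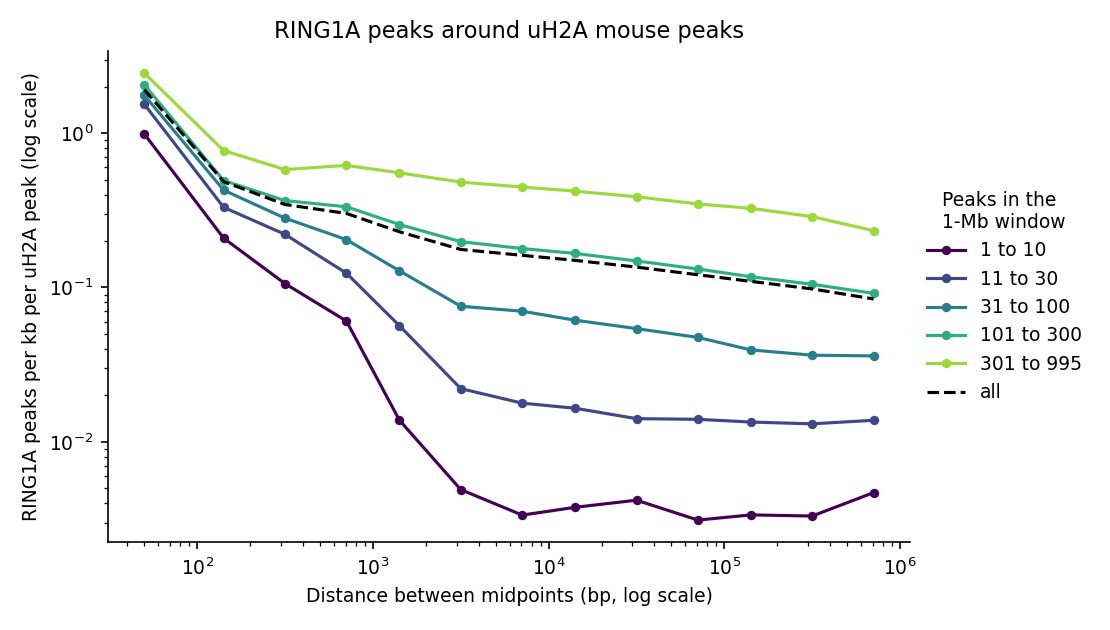
RING1A peaks per kb around uH2A mouse midpoints (y axis, log scale) against the distance between midpoints in bp (x axis, log scale), for all uH2A peaks (dashed) and by the number of peaks of both lists in the 1-Mb window of the uH2A peak (colours). All curves are highest within 100 bp, from 0.988 per kb in the sparsest to 2.45 per kb in the densest windows, and the level beyond 5 kb is higher in denser windows.

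Taller peaks overlapped more often in both directions. On chromosomes 1 to 21 the share of RING1A peaks on uH2A was 12.6% in the lowest class of RING1A height, 20.5% and 29.6% in the middle classes and 45.6% in the tallest. The tallest class exceeded the lowest by 33.0 points (32.0 to 34.0), and with peaks of height 0 counted as the lowest the difference was 30.7 points (14.5% against 45.2%). The share of uH2A peaks on RING1A was 29.0%, 34.0%, 42.4% and 69.1% from the lowest to the tallest class of uH2A height, a difference of 40.1 points (38.7 to 41.5), or 40.9 points over all chromosomes. Where an overlap had to cover at least 50% of the peak, the uH2A difference over all chromosomes was 26.2 points. Distances shortened with height as well. The median distance from RING1A to uH2A fell from 6762.5 bp in the lowest class to 3087.5, 1375 and 487.5 bp in the taller classes, and that from uH2A to RING1A from 1150 to 737.5, 375 and 75 bp.

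**Figure D2:**
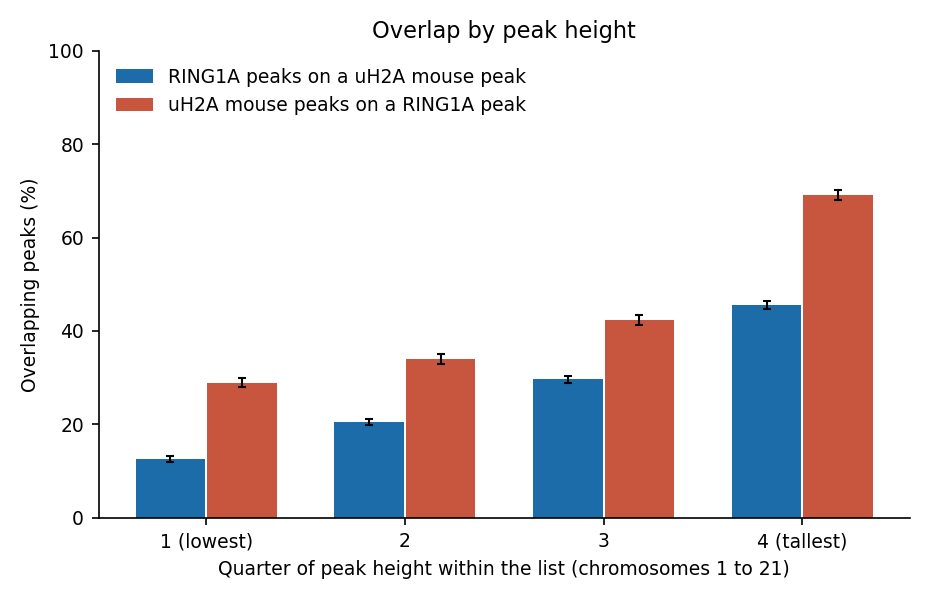
Share of peaks (y axis, %) that overlap the other list, by class of peak height within the list, 25% of its peaks each (x axis), on chromosomes 1 to 21, with Clopper-Pearson 95% intervals. RING1A rises from 12.6% to 45.6% and uH2A mouse from 29.0% to 69.1%.

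The extremes of height behaved differently in the ligase and in the mark. Of the tallest 1% of uH2A peaks, 326 of 329 lay on RING1A, 99.1% (97.4 to 99.8). Of the tallest 1% of RING1A peaks, 171 of 538 lay on uH2A, 31.8% (27.9 to 35.9), which was below the 45.6% of the tallest 25%. Outside high-signal windows these shares were 296 of 298 and 123 of 354 (34.7%). A window of 100 kb, together with those on either side, was called high-signal where 2 or more of the 5 other control antibodies had a peak that exceeded 10 times their own median height. RING1B, BMI1 and H3K27me3 could not count towards this on chromosomes 22, X and Y. There were 85 such windows, with 1.26% of RING1A and 0.499% of uH2A peaks.

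Class against class, the tallest sites of the lists met each other most. Of uH2A peaks in the tallest 25%, 43.0% lay on a RING1A peak of the tallest 25%, 17.2% on the next, 8.65% on the next and 3.91% on the lowest. Of uH2A peaks in the lowest 25%, the shares on RING1A from its tallest to its lowest class were 7.01%, 8.22%, 7.32% and 6.61%, so low uH2A peaks met RING1A peaks of any height at a similar rate.

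Longer peaks can overlap others more easily, and taller peaks were longer. The median length was 75 bp in the lowest and 225 bp in the tallest 25% of RING1A, and 100 and 250 bp in those of uH2A. Among RING1A peaks of 75 to 100 bp, 16.2% lay on uH2A, against 51.5% of those of 250 bp or more. Among uH2A peaks the same classes gave 27.8% and 74.8%. Within each of 4 length classes the tallest 25% still exceeded the lowest. For RING1A the smallest difference was 17.0 points (12.1 to 21.3), at 175 to 225 bp, and the class of 250 bp or more gave 53.7% against 26.7% (interval of the difference 12.6 to 37.8 points). For uH2A they ran from 13.2 points (3.76 to 23.4) at 75 to 100 bp to 33.4 points (17.6 to 48.3) at 250 bp or more. The longest class held only 45 RING1A and 37 uH2A peaks of the lowest 25%.

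Ligase and mark were dense in the same parts of the genome. Of 2509 windows of 1 Mb with a peak of either list, 1966 (78.4%) held both, 413 held RING1A alone and 130 uH2A alone. The windows with RING1A alone held a median of 2 peaks. Across the 2509 windows the counts had a Spearman correlation of 0.832 and a Pearson r of 0.921, a description over windows that are not independent of each other. No input library was used, so the counts are not corrected for DNA copy number or mappability, and their part was not tested. In windows of 100 kb the Spearman correlation was 0.535. Among other pairs, the Spearman correlation with RING1A was 0.812 for BMI1, 0.734 for EED, 0.686 for uH2A rabbit, 0.419 for RING1B and 0.312 for H3K27me3. The Spearman correlation with uH2A mouse was 0.764 for uH2A rabbit, 0.729 for EED, 0.623 for BMI1, 0.272 for H3K27me3 and 0.219 for RING1B.

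**Figure D3:**
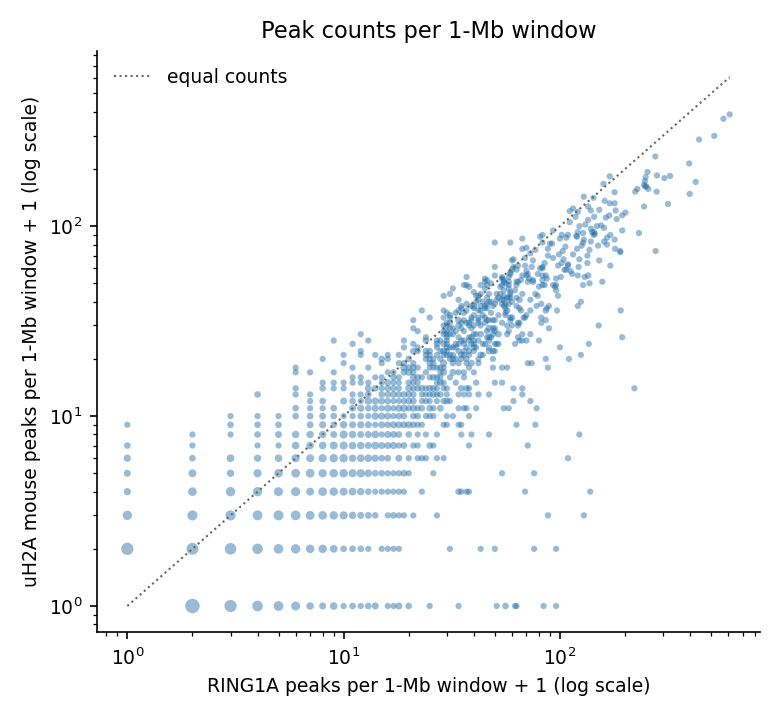
Peaks per 1-Mb window plus 1 of RING1A (x axis, log scale) and uH2A mouse (y axis, log scale) in 2509 windows. Each point is a pair of counts, larger where more windows share it, and the dotted line marks equal counts. Counts rise together, with RING1A the higher in 1900 windows and uH2A in 419.

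A small part of the genome held much of both lists. The densest 10% of windows by RING1A, 251 windows, held 55.3% of RING1A peaks, and the densest 10% by uH2A held 57.4% of uH2A peaks. These sets had 185 windows in common. In 49 windows each list had at least 100 peaks, and these held 20.5% of RING1A and 22.9% of uH2A peaks. The highest summed ranks were in hg19 windows at the start of chromosome 5, near the end of chromosome 14 and on the long arm of chromosome 22. On chromosome 5 from 1000001 to 2000000 there were 608 RING1A and 387 uH2A peaks, and 252 of the RING1A peaks were shared. The window next to it, from 1 to 1000000, had 516 and 298. On chromosome 14 from 105000001 to 106000000 there were 569 and 367, with 241 RING1A peaks shared. On chromosome 22 the window from 20000001 to 21000000 had 439 and 285, and that from 18000001 to 19000000 had 395 and 213. The median window had 7 RING1A and 4 uH2A peaks. The other antibodies were dense there too. These 5 windows held 92 to 286 uH2A rabbit, 79 to 142 EED, 135 to 224 BMI1, 15 to 202 H3K27me3 and 8 to 46 RING1B peaks each, where the medians over the 2509 windows were 3, 2, 2, 3 and 0.

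Overlap was more common in dense windows. In windows with 1 to 10 peaks of both lists 11.4% of RING1A and 21.5% of uH2A peaks were shared, and the shares rose through each class to 37.0% and 58.4% in the 31 windows with more than 300. Those classes were chosen after the counts had been seen, and a denser window also offers more partners. Median heights rose as well, from 54 to 61 for RING1A and from 35 to 39 for uH2A. For scale, the middle 2 height classes on chromosomes 1 to 21 had median heights of 56 and 62.2 for RING1A. For uH2A these were 35.3 and 39.1. Median lengths rose from 100 to 150 bp for RING1A and from 125 to 150 bp for uH2A. The part of height and length in the rise of overlap was not tested.

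Some windows had many RING1A peaks and none of uH2A mouse. Among 920 windows with at least 20 peaks of both lists, 9 had RING1A alone, with 518 RING1A peaks: 4 on chromosome 9, 2 on chromosome 2, 2 on Y and 1 on X. The highest counts were on chromosome 9 from 42000001 to 43000000 (95 RING1A peaks), Y from 9000001 to 10000000 (83) and chromosome 2 from 90000001 to 91000000 (62). The contrast followed the set of libraries. In these 9 windows RING1B had 301 peaks, BMI1 576 and H3K27me3 290, while uH2A rabbit had 2 and EED 4. How far the set or the antibody made this difference cannot be told apart. At the other end, RING1A made up the smallest part of the peaks on chromosome 22 from 39000001 to 40000000 (5 RING1A and 17 uH2A mouse peaks), chromosome 3 from 48000001 to 49000000 (5 and 16) and chromosome 22 from 46000001 to 47000000 (8 and 24). There uH2A rabbit had 18, 13 and 44 peaks and RING1B none.

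By chromosome, chromosome 14 was the densest for both lists, with 61.9 RING1A and 31.1 uH2A peaks per Mb. Next came chromosomes 21 and 17 for RING1A (49.0 and 34.2 per Mb) and chromosomes 17 and 19 for uH2A (26.9 and 23.5 per Mb). The sparsest were X, 13 and Y for RING1A (1.28, 2.61 and 4.67 per Mb) and X, Y and 13 for uH2A (0.103, 0.253 and 1.49 per Mb). Over 24 chromosomes the densities had a Spearman correlation of 0.936 and a Pearson r of 0.914, as a description. These densities are likewise not corrected for DNA copy number or mappability. The number of uH2A peaks per RING1A peak ran over the autosomes from 0.460 on chromosome 15 to 0.922 on chromosome 19. It was 0.0808 on X, with 16 uH2A and 198 RING1A peaks, and 0.0542 on Y, with 15 and 277.

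The share of uH2A peaks on RING1A differed widely between chromosomes, against 44.0% for the genome. It was 65.9% on chromosome 14 (64.3 to 67.6) and 65.3% on chromosome 18 (62.5 to 68.1), and 55.7% on 21, 55.4% on 22, 55.0% on 5 and 54.6% on 1. It was lowest among the autosomes on chromosomes 13 (20.9%, 15.1 to 27.8), 19 (26.9%, 24.6 to 29.3) and 20 (29.2%). Chromosomes 19 and 14 thus lay at opposite ends although both were dense in uH2A. The share of RING1A peaks on uH2A moved less over the autosomes, from 12.3% on chromosome 13 and 18.7% on 7 to 33.8% on 14, against 27.1% for the genome. Over the 22 autosomes the share of uH2A peaks on RING1A had a Spearman correlation of 0.591 with RING1A density and of -0.791 with the number of uH2A peaks per RING1A peak. The count of uH2A peaks divides the share and is itself divided in that ratio, which favours a negative value by construction. A chromosome denser in RING1A also offers more partners. On Y, 14 of 15 uH2A peaks lay on RING1A, and on X 1 of 16 did.

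**Figure D4:**
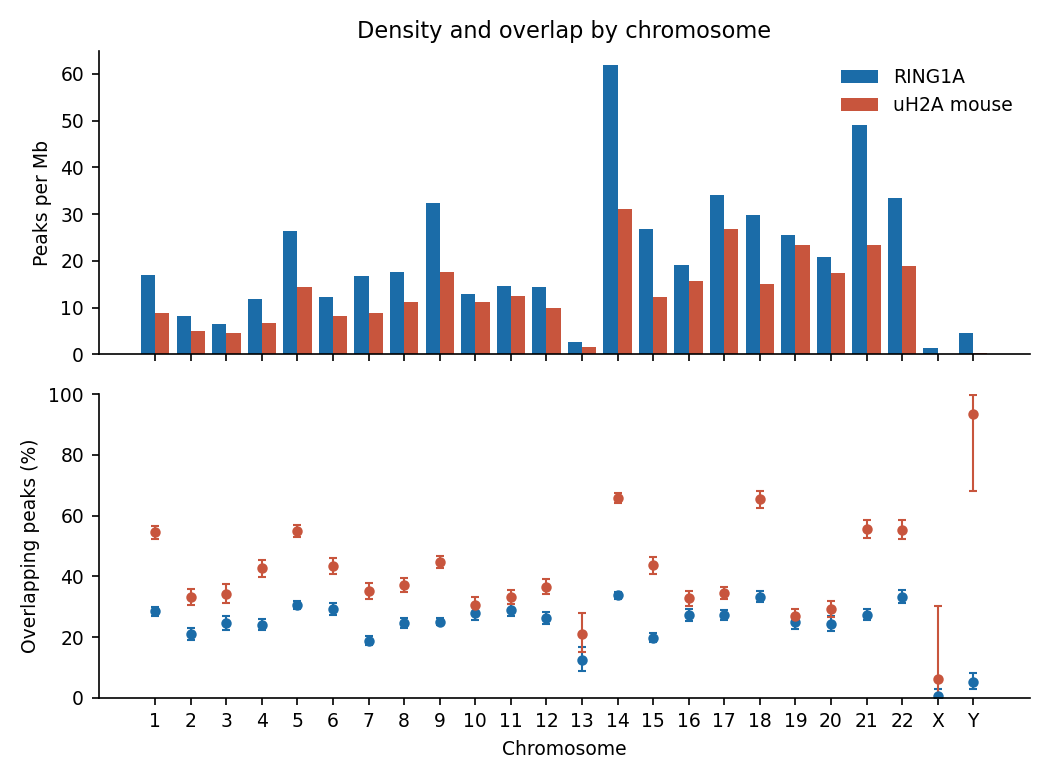
Peaks per Mb (upper panel) and share of peaks on the other list in % with Clopper-Pearson 95% intervals (lower panel) by chromosome, for RING1A (blue) and uH2A mouse (red). Chromosome 14 is highest in both densities, and uH2A sharing is 65.9% there against 26.9% on chromosome 19.

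The lists of the other control antibodies were not used in the overlap of RING1A with uH2A mouse. EED and the rabbit uH2A antibody favoured sites with both ligase and mark. The rabbit antibody had a peak on 31.5% of RING1A peaks that carried uH2A mouse and on 8.46% of those that did not, a difference of 23.1 points (22.3 to 23.9). EED gave 20.9% and 3.82%, a difference of 17.1 points (16.5 to 17.8). BMI1, a partner of the ligases, gave 31.7% and 18.1%, a difference of 13.7 points (12.9 to 14.5). RING1B, the other ligase, had no stable direction. Over all peaks it gave 5.93% and 6.18%, with an interval of the difference from -0.689 to 0.197 points. With peaks within 1000 bp merged the difference was 1.34 points (0.849 to 1.86), and with peaks within 1000 bp counted as shared it was -2.59 points (-3.06 to -2.12). H3K27me3 gave 6.70% and 6.13%, a difference of 0.572 points (0.119 to 1.04), which changed sign where an overlap had to cover at least 50% of the peak (-0.147 points) and in windows of at most 100 peaks (-0.0747 points). EED and uH2A rabbit belong to the library set of uH2A mouse, while BMI1, RING1B and H3K27me3 belong to that of RING1A. The differences of uH2A rabbit and EED thus exceeded those of each antibody of the RING1A set, and the part of the set in this order was not tested.

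Seen from the mark, all 5 other antibodies were more frequent where RING1A was present. BMI1 lay on 32.4% of uH2A mouse peaks with RING1A (31.7 to 33.2) and 4.66% of those without (4.36 to 4.96), a difference of 27.8 points. RING1B lay on 6.29% and 0.0895%, or 937 and 17 peaks. The differences were 15.6 points for uH2A rabbit (32.2% against 16.6%), 15.3 points for EED (21.6% against 6.26%) and 3.15 points for H3K27me3 (6.71% against 3.55%). BMI1, RING1B and H3K27me3 belong to the library set of RING1A, and the part of the set in these differences was not tested. Of the 18988 uH2A mouse peaks without RING1A, 76.5% met none of the 5 other antibodies, against 45.4% of those with it. For RING1A peaks the share that met none was 70.6% without uH2A and 46.5% with it.

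**Figure D5:**
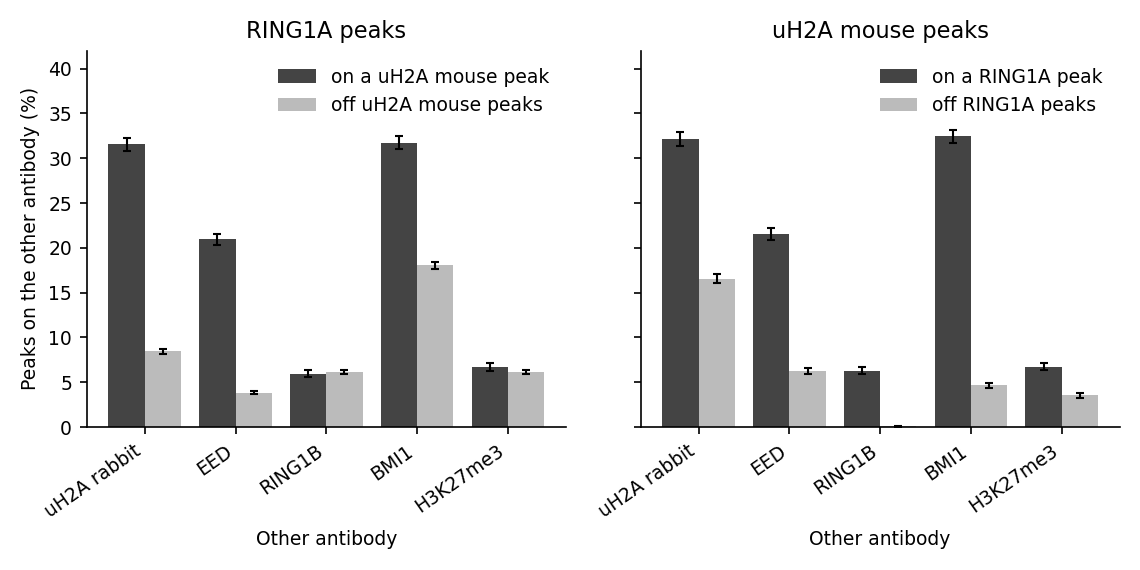
Share of RING1A peaks (left) and uH2A mouse peaks (right) in % that overlap each other control antibody (x axis), for peaks on (dark) and off (light) a peak of the opposite list, with Clopper-Pearson 95% intervals. For RING1A peaks the EED share is 20.9% with the mark and 3.82% without it, while the RING1B shares are 5.93% and 6.18%.

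At RING1A peaks, height changed the picture for RING1B and BMI1. Within each of the 4 height classes of RING1A on chromosomes 1 to 21, RING1B was less frequent at peaks with uH2A, with differences of -0.675, -0.675 and -1.34 points in the lower 3 and each interval below 0. Among the tallest 25%, RING1B lay on 13.4% of those with uH2A and 24.1% of those without, a difference of -10.7 points (-12.0 to -9.41). BMI1 gave 49.7% and 49.9% there, with an interval of the difference from -1.87 to 1.53 points, and was 5.76 to 8.10 points more frequent at shared peaks in the other height classes. H3K27me3 was 2.69 points less frequent at shared peaks of the tallest 25% (9.12% against 11.8%). EED kept its direction, with 31.4% and 5.36%, as did uH2A rabbit, with 38.5% and 9.10%.

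Sorting RING1A peaks by the other antibodies gave the same contrast from the other side. RING1A peaks with BMI1 and without RING1B carried uH2A mouse in 44.0% of 8989 cases (43.0 to 45.1). Those with both BMI1 and RING1B carried it in 26.8% of 3197 cases (25.2 to 28.3), although their median height was 113 against 67.2. Those with neither carried it in 23.6% of 43598 cases. The 227 with RING1B and without BMI1 carried it in 18.9% (14.1 to 24.7). Outside high-signal windows the first 3 shares were 44.4%, 27.2% and 23.7%. Within the tallest 25% they were 53.7% of 4212, 31.8% of 2494 and 45.9% of 6662. Peaks with both BMI1 and RING1B then carried uH2A less often than those with neither. Median heights of these 3 classes still differed within the tallest 25%, at 80, 124 and 72.6, and the part of height was not tested. BMI1 and RING1B belong to the library set of RING1A, EED and uH2A rabbit to that of uH2A mouse. The part of the set was not tested either. RING1A peaks with EED carried uH2A mouse in 67.0% of 4738 cases, and with EED and uH2A rabbit in 74.6% of 2855.

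RING1A sites with H3K27me3 carried uH2A mouse more often where EED was also present. RING1A peaks on H3K27me3 without EED carried uH2A mouse in 22.3% of 3105 cases (20.8 to 23.8), close to the 23.4% of all RING1A peaks without EED. RING1A peaks on both H3K27me3 and EED carried it in 78.3% of 414 cases (74.0 to 82.1), against the 67.0% of all RING1A peaks with EED (65.7 to 68.4). Peaks with both were longer, with a median of 250 bp against 150 bp, and taller, with a median height of 84.9 against 62. Within the tallest 25% the shares were 26.3% of 1131 and 89.8% of 293. Median lengths there were 250 and 325 bp and median heights 95.2 and 104.6. EED belongs to the library set of uH2A mouse and H3K27me3 to that of RING1A. The part of the set, of length and of height in this contrast was not tested.

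Several Polycomb target loci were examined through the 1-Mb windows that hold them. Their positions come from general knowledge of hg19, since no annotation of that build was used, and a window also holds other genes. The HOX clusters, which set body position in development and are classic Polycomb targets, were unlike each other. The HOXA window on chromosome 7 (27000001 to 28000000) had 35 RING1A and 20 uH2A mouse peaks with 8 RING1A peaks shared. The HOXC window on chromosome 12 (54000001 to 55000000) had 32 and 27 with 8 shared, and the HOXB window on chromosome 17 (46000001 to 47000000) 15 and 20 with 6 shared. The windows of HOXD on chromosome 2 (176000001 to 178000000) had 3 RING1A peaks and 1 uH2A peak over 2 Mb with none shared, beside 68 H3K27me3 peaks. RING1B had 1 peak in all 4 clusters together, in the HOXC window.

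The other 5 loci differed in how many ligase and mark peaks stood beside their H3K27me3 peaks. The window of RBFOX3, a neuronal splicing factor, on chromosome 17 (77000001 to 78000000) had 370 H3K27me3 peaks, 43 RING1A and 39 uH2A mouse peaks, with 7 RING1A peaks shared, and 118 uH2A rabbit peaks. The window of FOXF1, FOXC2 and FOXL1, forkhead transcription factors, on chromosome 16 (86000001 to 87000000) had 309, 33 and 35, with 4 shared. The window of FOXQ1, FOXF2 and FOXC1 on chromosome 6 (1000001 to 2000000) had 203, 33 and 8, with 1 shared. The window of PAX2, TLX1 and LBX1, developmental transcription factors, on chromosome 10 (102000001 to 103000000) had 139 H3K27me3, 41 RING1A and 40 uH2A mouse peaks, and 19 RING1A peaks were shared. Of the 9 loci this was the one with the most shared peaks. The window of the kallikrein genes with KLK3, which encodes prostate-specific antigen, on chromosome 19 (51000001 to 52000000) had 84 H3K27me3 peaks and only 1 RING1A and 2 uH2A mouse peaks, none shared, beside 23 uH2A rabbit peaks. The windows of RBFOX3, PAX2, HOXA and HOXC and the 2 forkhead windows held more RING1A peaks than 80.7% to 85.8% of windows. For HOXB the value was 67.0%, for HOXD, counted per window, 18.4% and for the kallikrein genes 5.18%. Over all RING1A peaks, 27.1% were shared with uH2A mouse. Only the windows of PAX2 (19 of 41 RING1A peaks) and HOXB (6 of 15) had a larger part shared. The part was smaller at the other loci. These counts are small, and the difference from the genome was not tested.

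Single sites were named by rule. The shared sites with the highest combined height percentiles lay in places where 4 or 5 of the other 5 antibodies also had a peak. On chromosome 21 the RING1A peak from 9826851 to 9827550 was 108 times the median RING1A height and the uH2A peak from 9826901 to 9827550 was 69.1 times the median uH2A height, with peaks of 5 of 5 other antibodies. The others were on chromosome 7 (RING1A 61968601 to 61968925), chromosome 10 (42599451 to 42600175 and 42395826 to 42396200) and chromosome 2 (133025526 to 133025975). No input or IgG signal is shown for these places, so signal with any antibody cannot be told apart from binding there. Outside high-signal windows the first 3 were on chromosome 17 (RING1A 41400501 to 41401275, uH2A 41400201 to 41401125), chromosome 11 (93970826 to 93971675 and 93970851 to 93971700) and chromosome 21 (11143551 to 11144400 and 11143576 to 11144350). Their RING1A peaks were 8.16, 6.68 and 5.76 times and their uH2A peaks 7.65, 4.64 and 4.89 times the median height of the list. Peaks of 4, 5 and 4 of the 5 other antibodies lay there too. No input or IgG signal is shown for these 3 sites either, so the same limit holds for them.

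Peaks of other antibodies were also looked up at the tallest peaks without a partner. No input or IgG signal is shown for these places either, within or outside high-signal windows. Signal with any antibody thus cannot be told apart from binding at them. Outside high-signal windows the tallest RING1A peaks without uH2A mouse lay on chromosome 1 (156186201 to 156186650, 27.8 times the median height), chromosome 20 (26189876 to 26190325, 21.7 times) and chromosome 19 (36066476 to 36066650, 19.5 times). RING1B and BMI1 had a peak at all 3, H3K27me3 at the first and second, and EED and uH2A rabbit at none. The tallest uH2A mouse peaks without RING1A outside those windows lay on chromosome 5 (1960376 to 1960700), chromosome 17 (79227776 to 79227950) and chromosome 17 (29923826 to 29924225). At 1.97, 1.95 and 1.92 times the median they were far lower than the RING1A peaks, EED and uH2A rabbit had a peak at all 3 and BMI1 at the first, and RING1A lay 125, 1200 and 2275 bp away. The tallest uH2A peak of all without RING1A, on chromosome 1 (121484876 to 121485375), was 40.5 times the median height, had uH2A rabbit and EED peaks, and lay 975 bp from a RING1A peak. Over all windows the tallest RING1A peaks without uH2A were on chromosome 10 (42384901 to 42385300 and 42393626 to 42393950) and chromosome 16 (33952976 to 33953350), at 56.5 to 119.5 times the median. All 5 other antibodies, uH2A rabbit and EED included, had a peak at the tallest of these, on chromosome 10 from 42384901, while the remaining 2 met RING1B, BMI1 and H3K27me3 only.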

How the data were processed

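Peak lists of 7 control libraries were used, of which RING1A and uH2A mouse are compared and the other 5 serve for comparison. The 7 knockdown lists enter only the total number of peaks of the series. The submitters' processing notes name Bowtie and the hg19 build, and HPeak stands in the names of the deposited lists, 1 for each library. No source used here gives versions, settings or an input library. A deposited height was taken as the signal of its peak, a meaning inferred from its values. It was not normalised between libraries, and served only to rank, filter or describe peaks within a list. The deposited score, negative and undefined in the sources used here, was not used. Lengths are multiples of 25 bp and no peaks overlap within a list. Chromosome prefixes were removed, and the pair of numbers above the autosomes was taken to mean X and Y, an assumption set beside the largest ends (153239850 and 59033050 in uH2A mouse, 155256550 and 59360375 on X and Y of RING1A).

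Overlap was at least 1 bp. Distances are between midpoints unless stated, and within 1, 10 or 100 kb refers to edges. A peak belongs to the window of its midpoint, and chromosome densities use the largest end in any list as span. Overlap and distance functions were tested on simulated lists with planted overlaps. No p-value was computed, since each group has 1 library. Regions were named by rule: the 5 shared pairs with the highest summed height percentiles (3 outside high-signal windows), the 3 tallest unshared peaks of each list within and outside those windows, the 5 windows with the highest summed ranks, the 3 with the highest and lowest RING1A part among windows of at least 20 peaks, the extreme chromosomes, and the windows of 9 loci. The autosomes named for their overlap, the classes by several antibodies and the tallest 1% were picked with their values in view. The comparison, the lists and the loci were chosen with earlier results of these data known. Python 3.11.15 with numpy 2.4.6, pandas 2.3.3, scipy 1.17.1 and matplotlib 3.10.9 was used.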

Additional observations from a re-analysis of the deposited data

How the results depend on the processing

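No paired analysis was possible because each group has 1 library. All differences between the tallest and lowest 25% of peaks by height stayed above 0 under each alternative run. In the order RING1A, then uH2A mouse where 2 values are given, the values of overlap, height classes, distances and window counts that left the main interval, or for the Spearman correlation moved by over 0.05, were these. Above the median height of each list, 43.0% of uH2A peaks were shared, height classes differed by 25.7 and 43.7 points, median distances were 3337.5 and 462.5 bp and the Spearman correlation over windows was 0.774. With peaks within 1000 bp merged, 29.3% and 46.0% were shared, height classes differed by 39.1 and 47.6 points and distances were 4112.5 and 775 bp. With heights above 0 only, 42.3% of uH2A peaks were shared and height classes differed by 33.0 and 37.6 points. On chromosomes 1 to 21 (added after the data were seen) the RING1A difference was also 33.0 points. The runs above the median height, with heights above 0 and with the tallest 33879 RING1A peaks dropped all 2189 RING1A peaks of chromosomes 22, X and Y. The uH2A list kept peaks there, which then had no possible partner. With both lists cut to chromosomes 1 to 21, 43.6% of uH2A peaks were shared. With the tallest 33879 RING1A peaks, 34.5% and 34.4% were shared, the RING1A height classes differed by 25.2 points and distances were 1150 and 1050 bp. With overlap of at least 50% of the peak, 21.8% and 34.1% were shared and height classes differed by 23.2 and 26.2 points. With peaks within 1000 bp counted, 42.8% and 62.7% were shared and height classes differed by 27.7 and 32.5 points. In windows of at most 100 peaks (added), 21.9% and 36.4% were shared, height classes differed by 28.6 and 32.8 points and distances were 9987.5 and 925 bp. Between edges the median gaps were 2100 and 175 bp. The Spearman correlation was 0.535 in windows of 100 kb and 0.924 in windows of 5 Mb. H3K27me3 at shared minus unshared RING1A peaks turned to -0.147 points (overlap of at least 50%) and -0.0747 points (windows of at most 100 peaks). RING1B at RING1A peaks, whose main interval includes 0, ran from -2.59 to 1.34 points. The interval lay above 0 with merged peaks (1.34 points) and below 0 with the tallest 33879 RING1A peaks (-1.73), overlap of at least 50% (-1.16), peaks within 1000 bp (-2.59) and windows of at most 100 peaks (-1.98). The other 8 differences between shared and unshared sites stayed above 0 under 10 of 10 alternatives. In windows of at most 100 peaks BMI1 at RING1A peaks was 8.90 points and RING1B at uH2A peaks 3.495 points. BMI1 at RING1A peaks was 9.06 points with overlap of at least 50%, and uH2A rabbit at uH2A peaks was 23.6 points with peaks within 1000 bp. Of 100 alternative values of these 10 differences, 49 left the main interval and a further 2, those of H3K27me3, turned.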
